A study of Mus musculus with 5 samples.

Results

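Egr1, Egr2 and Egr3 of the early growth response family and Nr4a1, Nr4a2 and Nr4a3 of the NR4A family of nuclear receptors were read by symbol from a table of normalised read counts. All 6 were among its 17638 genes, and all 6 passed the filter for testing, a mean of at least 10 normalised reads over the libraries, with 14339 genes. The table came from RNA sequencing of polyadenylated transcripts of CD31+ cells, taken from hearts of mice on day 5 of a myocardial infarction. The tested animals were Tbx1cko mice, with 2 libraries, and were compared with controls, with 3 libraries. The series calls Tbx1cko an endothelial knockout of Tbx1, a T-box transcription factor gene. The labels name neither the Cre line nor the deleted part of the gene. Every mouse was about 2 months old, had a C57BL/6 background and carried an infarction, so the uninjured heart was not compared here. Nothing in the labels says whether each control library was its own animal, so the spread behind a p-value may be technical.

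Egr and Nr4a genes are immediate early genes, whose transcription starts within minutes of a stimulus and needs no new protein. EGR proteins are zinc-finger transcription factors that bind GC-rich sites. Growth factors and stretch switch them on through the kinase ERK, which activates the factors ELK and SRF on their promoters, and the corepressors NAB1 and NAB2 hold EGR activity in check. NR4A proteins are nuclear receptors with no established ligand, so their activity follows how much of them is made, and cyclic AMP and calcium act on their genes through CREB and MEF2. In endothelium VEGF, thrombin and flow induce both families. Enzymatic release of cells from tissue also induces them, and the labels do not describe how the cells were released or sorted, while their RNA protocol speaks of hearts.

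Libraries held between 14689782 and 18617284 reads. Control replicate 2 stood apart. Across genes, which are not independent replicates, it reached r of 0.859 to 0.889 with another library on the log2 scale, whereas the other 4 reached 0.980 to 0.988 among themselves. Its deviation from the other controls followed the GC content of the transcripts across genes (Spearman rho 0.815), so the tests of the 6 genes are also given without it. Tbx1 had 18.3 and 17.3 normalised reads in the Tbx1cko libraries, against 64.4, 72.7 and 69.6 in control replicates 1 to 3. Xist, transcribed from the inactive X of females, had 0 and 12968 normalised reads in Tbx1cko replicates 1 and 2, against 16.9, 0 and 1.88 in control replicates 1 to 3, and the Y-linked Ddx3y had 1929 and 3.06 in the Tbx1cko libraries, against 1673, 43.2 and 2116 in the controls. High Xist with Ddx3y near 0 was seen in Tbx1cko replicate 2 alone, so the Tbx1cko libraries came from different animals. All 10 endothelial markers listed, Pecam1 among them, were read in every library. With limma on log2(normalised count + 1), 0 of 14339 genes passed an adjusted p of 0.05, and 197 were lower and 53 higher at an unadjusted p under 0.05. edgeR called 0 genes and DESeq2 called 4.

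Egr1 was the most abundant of the 6 genes. Per kilobase of exon it had 7558 ± 788 normalised reads in Tbx1cko libraries (SD, n = 2) and 12718 ± 4557 in control libraries (SD, n = 3). By normalised count it ranked 33 and 28 among all genes in the Tbx1cko libraries, and 20, 7 and 19 in control replicates 1 to 3. Nr4a1 came next, at 3130 ± 318 per kilobase in Tbx1cko and 5977 ± 2135 in control libraries, followed by Nr4a2 at 585 ± 100 in Tbx1cko and 809 ± 24.9 in control libraries. Nr4a3, at 344 ± 49.4 in Tbx1cko and 439 ± 109 in control libraries, and Egr2, at 299 ± 75.03 in Tbx1cko and 427 ± 122 in control libraries, did not differ from each other beyond their spread. Egr3 was lowest, at 75.7 ± 19.2 in Tbx1cko and 193 ± 83.0 in control libraries. The order held in every library except that Egr2 stood above Nr4a3 in control replicate 2. Egr1 made up 94.8% to 95.8% of the per-kilobase level of the 3 Egr genes in each of the 5 libraries. Nr4a1 made up 77.9% and 76.4% of that of the 3 Nr4a genes in the Tbx1cko libraries, and 80.5%, 88.3% and 75.9% in control replicates 1 to 3.

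The log2 difference of each of the 6 genes was below 0, so each was on average lower in Tbx1cko, against 47.6% of all genes tested. No member passed the limma threshold with all 5 libraries. At an unadjusted limma p under 0.05 there were 2 members, Egr3 and Nr4a1, both lower, where 1.37% of all genes tested were lower at that p. At an adjusted p under 0.05 edgeR called 0 of the 6 (0% of all genes lower) and DESeq2 0 of the 6 (0.0209% lower). In 4 of the 6 genes, Egr1, Egr3, Nr4a1 and Nr4a2, both Tbx1cko libraries lay below all 3 control libraries, as did 13.9% of all genes tested. The median log2 difference of the 6 genes was -0.60, and that of all genes tested was 0.028. Without control replicate 2, 5 of the 6 had an unadjusted limma p under 0.05 and were lower, against 4.07% of all genes, the groups did not overlap for 5 of the 6, against 17.8%, and the median was -0.52. In the same 4 libraries limma called 0 of the 6 (0.0139% of all genes lower), edgeR called 0 (0.00697% lower), and DESeq2 called Egr3 and Nr4a1 lower, where it called 0.272% of all genes lower. Leaving out Tbx1cko replicate 2, the library with Xist, left Tbx1cko replicate 1 alone in its group. The differences were then -0.80 for Egr1, -0.75 for Egr2, -1.55 for Egr3, -0.98 for Nr4a1, -0.65 for Nr4a2 and -0.47 for Nr4a3, all below 0 as with both. The part of sex in the result was not tested. In bulk RNA, fewer cells of a type that holds these transcripts and less of them in each cell cannot be told apart.

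**Figure D1:**
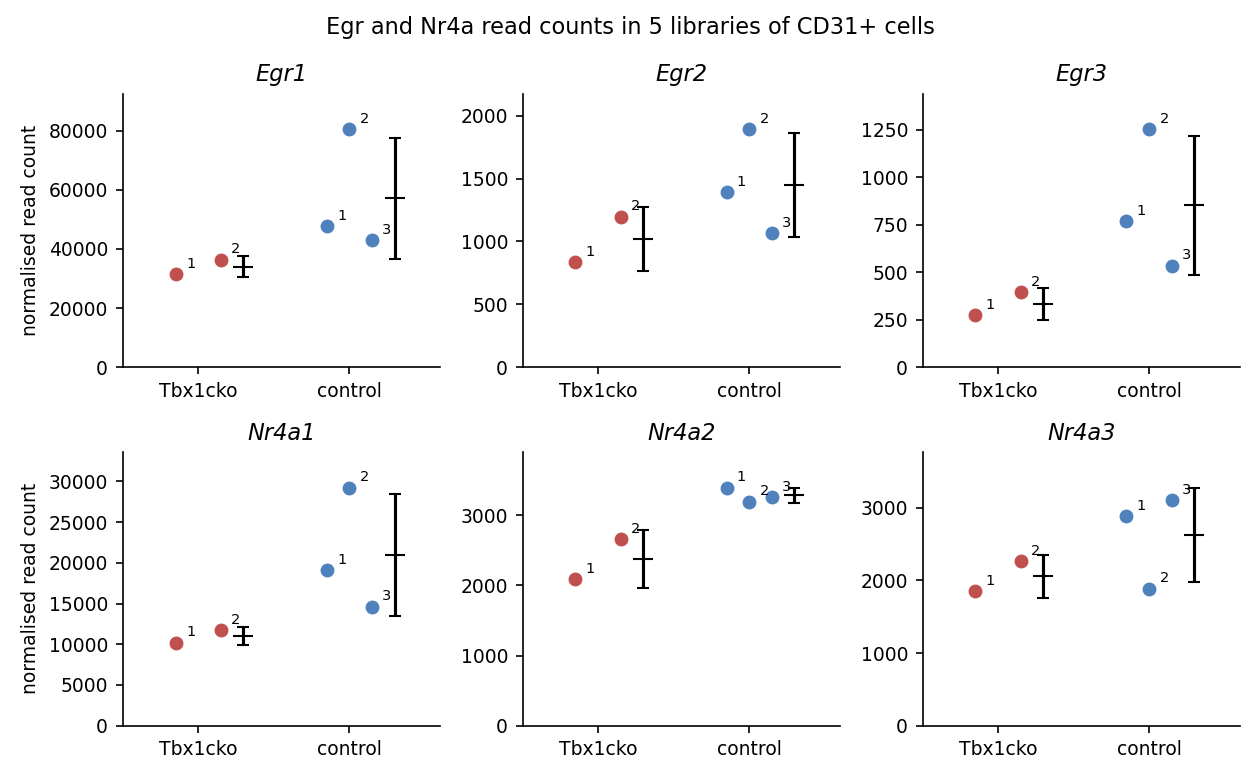
Normalised read counts of the 6 genes, with 1 point per library labelled by its replicate number, Tbx1cko on the left and control on the right of each panel; black bars give the mean and SD. Both Tbx1cko points lie below all control points for Egr1, Egr3, Nr4a1 and Nr4a2, and control replicate 2 is the highest library for Egr1, Egr2, Egr3 and Nr4a1 but not for Nr4a2 or Nr4a3.

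Egr1, the family member best known from injured vessel walls, lies on the plus strand of chromosome 18, from 34859823 to 34864984 in GRCm38. It had 31392 and 36390.0 normalised reads in Tbx1cko replicates 1 and 2, against 47768, 80454 and 42866 in control replicates 1 to 3. The groups did not overlap, and control replicate 2 was far above the rest. The log2 difference was -0.70 (SE 0.309, 95% interval -1.47 to 0.08), a level 1.62-fold lower, and the limma adjusted p was 0.762. Without control replicate 2 it was -0.42 (SE 0.166, limma adjusted p 0.596), and after a correction for GC content with all 5 libraries it was also -0.42. Between 34323 and 87468 reads lay behind each value, so counting error was under 1%, and the width of the interval came from the spread between libraries.

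Egr2, which in mouse directs hindbrain segments and Schwann cell myelination, lies on the plus strand of chromosome 10, from 67535475 to 67542188. It had 837 and 1197 normalised reads in Tbx1cko replicates 1 and 2, against 1391, 1892 and 1067 in control replicates 1 to 3. The groups overlapped, since Tbx1cko replicate 2 was above control replicate 3. Its log2 difference was -0.49 (SE 0.320, limma adjusted p 0.762). Leaving out control replicate 2 gave -0.28, leaving out Tbx1cko replicate 1 gave -0.24, and leaving out Tbx1cko replicate 2 gave -0.75. After GC correction with all 5 libraries it was -0.32.

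Egr3, which shares targets with Egr1 and is induced by VEGF in endothelial cells, lies on the plus strand of chromosome 14, from 70077203 to 70082614. It had the largest log2 difference of the 6 genes, with 273 and 393 normalised reads in Tbx1cko replicates 1 and 2 and 769, 1252 and 534 in control replicates 1 to 3. The groups did not overlap. The difference was -1.29 (SE 0.414, 95% interval -2.32 to -0.25), a level 2.44-fold lower, and the limma adjusted p was 0.762. Without control replicate 2 it was -0.97 (SE 0.212, limma adjusted p 0.226), and DESeq2 on the same 4 libraries gave -0.98 with an adjusted p of 0.0164. GC correction with all 5 libraries gave -1.10. Egr3 was the thinnest in reads, with 299 to 1361 per library, where counting error is 2.71% to 5.78%.

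Nr4a1, also known as Nur77, restrains inflammatory genes in endothelium and is needed for the patrolling, Ly6C-low monocytes of the mouse. It lies on the plus strand of chromosome 15, from 101254269 to 101274795. Its normalised reads were 10195 and 11774 in Tbx1cko replicates 1 and 2, against 19079, 29227 and 14609.9 in control replicates 1 to 3. The groups did not overlap, with control replicate 3 the nearest to the Tbx1cko libraries. The log2 difference was -0.88 (SE 0.321, 95% interval -1.68 to -0.07), a level 1.84-fold lower, and the limma adjusted p was 0.762. Without control replicate 2 it was -0.61 (SE 0.159, limma adjusted p 0.330), and DESeq2 on the same 4 libraries gave -0.63 with an adjusted p of 0.0286. GC correction with all 5 libraries gave -0.59.

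Nr4a2, or Nurr1, best known for its part in dopamine neurons, is on chromosome 2 between 57106830 and 57124003, on the minus strand. It had 2089 and 2664 normalised reads in Tbx1cko replicates 1 and 2, against 3393, 3195 and 3260.4 in control replicates 1 to 3. Here the controls lay close together, within 1.06-fold, control replicate 2 among them, and both Tbx1cko libraries lay below them. The log2 difference was -0.48 (SE 0.191, 95% interval -0.95 to 0.00), a level 1.39-fold lower, and the limma adjusted p was 0.762. It was -0.50 without control replicate 2 (limma adjusted p 0.357), -0.56 after GC correction, and -0.30 without Tbx1cko replicate 1.

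Nr4a3, or Nor1, acts in vascular cell growth and overlaps in function with Nr4a1, and lies on the plus strand of chromosome 4, from 48045153 to 48086447. It had 1851 and 2269 normalised reads in Tbx1cko replicates 1 and 2, against 2886, 1889 and 3109.8 in control replicates 1 to 3. The groups overlapped through control replicate 2, which lay between the Tbx1cko libraries. Its log2 difference was -0.33 (SE 0.282, limma adjusted p 0.762), and leaving out that library gave -0.55 (SE 0.132, limma adjusted p 0.291). It was -0.19 without control replicate 3 and -0.18 without Tbx1cko replicate 1. None of the 6 genes overlaps another gene of the GENCODE M21 annotation on either strand.

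**Figure D2:**
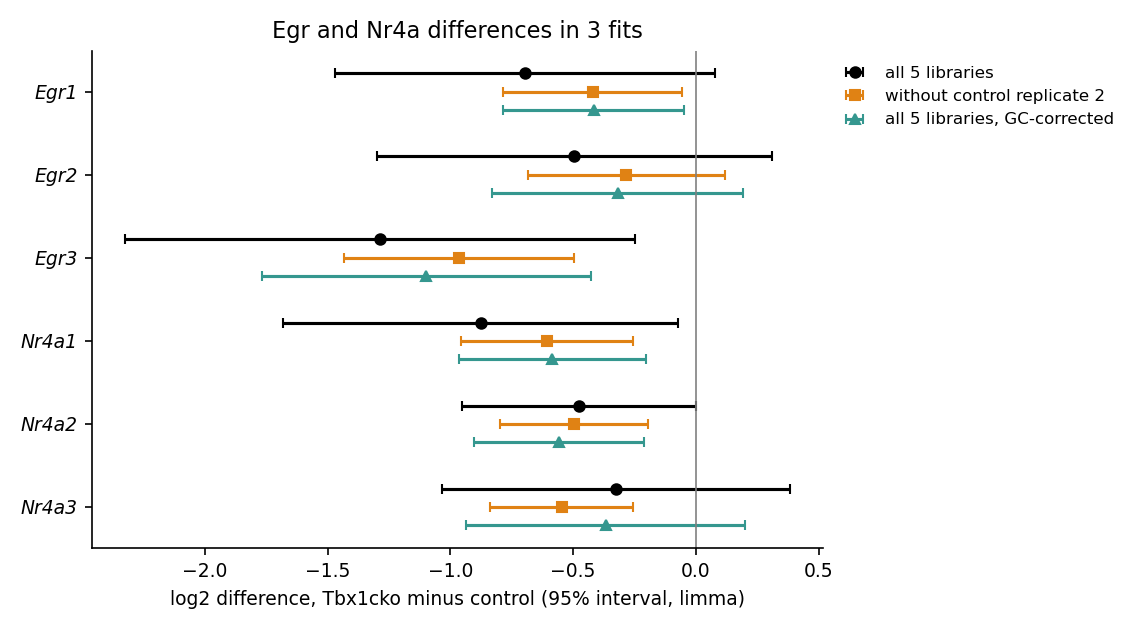
Log2 difference of each gene, Tbx1cko minus control, with its 95% interval from limma, for all 5 libraries, without control replicate 2, and for all 5 libraries after GC correction. Every estimate lies below 0, from -1.29 to -0.28, and the intervals are narrower once control replicate 2 is left out.

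Control replicate 2 moved the 6 genes apart from each other. Against the mean of the other controls it was higher by 0.83 for Egr1, 0.63 for Egr2, 0.96 for Egr3 and 0.81 for Nr4a1 on the log2 scale, about level for Nr4a2, at -0.058, and lower for Nr4a3, at -0.66. The GC content of the transcripts was 55.8%, 53.2%, 53.4% and 56.1% for the first 4 of these genes, 48.6% for Nr4a2 and 49.5% for Nr4a3. The trend of this library's deviation over all genes tested stood at 0.56, 0.36, 0.38 and 0.57 at those first 4 GC contents, at -0.26 at that of Nr4a2 and at -0.11 at that of Nr4a3. Egr3 was thus 0.58 above the trend and Nr4a3 0.55 below it, the farthest of the 6 on each side.

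**Figure D3:**
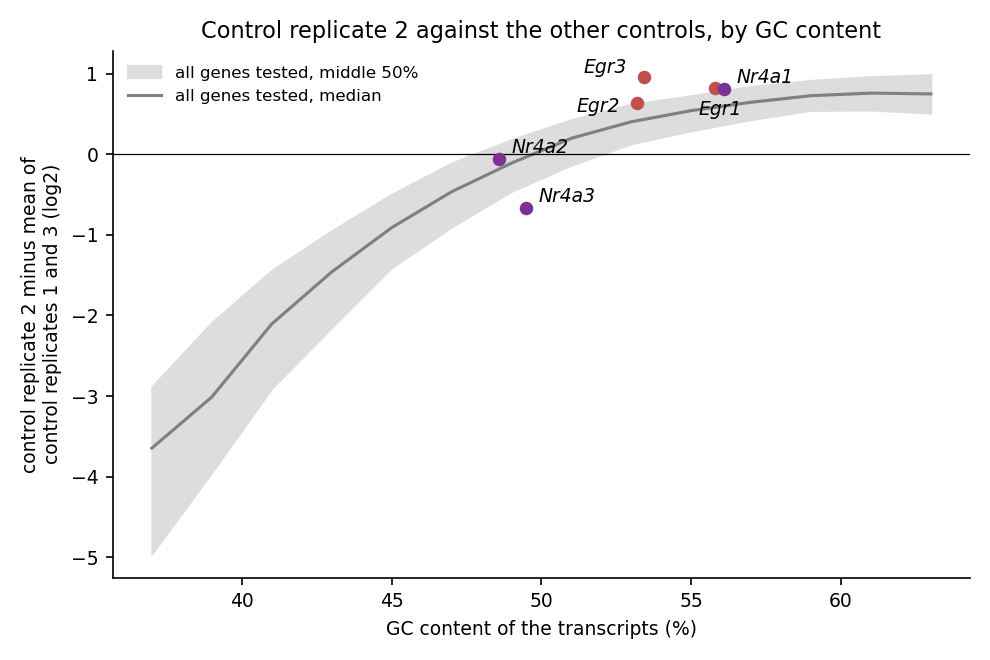
Log2 level of control replicate 2 minus the mean of control replicates 1 and 3 against the GC content of the transcripts, with the median (line) and middle 50% (band) of all genes tested in bins of GC content and the 6 genes as points. Egr1, Egr2, Egr3 and Nr4a1 lie at 53.2% to 56.1% GC and between 0.63 and 0.96, and Nr4a3 lies at -0.66, below the band.

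Ratios of members within a library do not depend on how libraries were scaled, and the ones given were chosen after their values were seen. Egr1 stood to Nr4a1, per kilobase, at 2.41 and 2.42 in the Tbx1cko libraries and at 1.96, 2.15 and 2.30 in control replicates 1 to 3, a range of 1.23-fold over all 5. Egr1 stood to Egr3 at 113 and 90.9 in the Tbx1cko libraries, against 61.0, 63.2 and 78.8 in control replicates 1 to 3. Egr2 stood to Egr3 at 3.97 and 3.95 in the Tbx1cko libraries, against 2.34, 1.96 and 2.59 in the controls. In each of these ratios the groups did not overlap, with Nr4a1 lower relative to Egr1, and Egr3 lower relative to Egr1 and to Egr2, in Tbx1cko. An exact rank test of 2 libraries against 3 cannot give a 2-sided p below 0.2, and no test was run on these ratios. Nr4a2 stood to Nr4a3 at 1.66 and 1.73 in Tbx1cko and at 1.73, 2.49 and 1.55 in control replicates 1 to 3.

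The promoters of the Nr4a genes and of Egr2 are shown for letters that match elements through which cyclic AMP or serum can act on genes. A total of 4 of the 6 genes were matched in the RefSeq promoter table for GRCm38.p6, and Egr1 and Egr3 were not printed. Capitals mark the cyclic AMP response element half-site, TGACG on either strand, and the CArG box bound by SRF. The motifs were chosen with the sequences in view. In the 250 bases before the start site Nr4a1, Nr4a2 and Nr4a3 each held 4 half-sites, a number reached by 45 of 32851 such windows (0.137%), among which windows of the same gene can overlap. Before its principal start Egr2 held 2 half-sites, as 3.90% of windows did or exceeded, and 1 CArG box, present in 1.47% of windows. The full palindrome TGACGTCA was in no window of these 4 genes, and in 1.55% of all windows. The EGR site GCGNGGGCG, on either strand, occurred once each before Nr4a1 and Nr4a2, and in 4.70% of all windows. The Nr4a1 stretch is the plus strand at chr15:101266596-101266845, the Nr4a2 stretch the minus strand at chr2:57124004-57124253, and the Egr2 stretch the plus strand at chr10:67537619-67537868. For Nr4a3 only the plus strand at chr4:48045055-48045152 is printed, with 3 of its 4 half-sites, because GENCODE places an exon in the rest. A match is a description of letters and not a bound site.
Nr4a1: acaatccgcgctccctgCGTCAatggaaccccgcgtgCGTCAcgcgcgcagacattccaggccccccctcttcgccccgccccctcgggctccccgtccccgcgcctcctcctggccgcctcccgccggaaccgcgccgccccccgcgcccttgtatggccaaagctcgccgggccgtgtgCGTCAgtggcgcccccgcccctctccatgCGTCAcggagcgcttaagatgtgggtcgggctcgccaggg
Nr4a2: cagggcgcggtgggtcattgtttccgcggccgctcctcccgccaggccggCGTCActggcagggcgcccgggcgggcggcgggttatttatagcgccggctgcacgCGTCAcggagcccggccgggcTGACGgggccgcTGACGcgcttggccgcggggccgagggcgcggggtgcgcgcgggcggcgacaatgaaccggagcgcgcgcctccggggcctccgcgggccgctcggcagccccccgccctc
Nr4a3: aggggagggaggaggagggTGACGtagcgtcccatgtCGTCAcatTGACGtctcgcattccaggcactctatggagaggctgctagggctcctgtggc
Egr2: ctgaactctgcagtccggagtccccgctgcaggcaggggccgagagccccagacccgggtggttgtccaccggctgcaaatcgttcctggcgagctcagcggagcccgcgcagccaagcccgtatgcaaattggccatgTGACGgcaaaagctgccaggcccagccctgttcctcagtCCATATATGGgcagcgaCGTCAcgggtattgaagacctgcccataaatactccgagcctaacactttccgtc

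The average profile of the 6 genes over the 5 libraries, each gene centred on its own mean log2 value, was -0.59 and -0.24 in Tbx1cko replicates 1 and 2, and 0.25, 0.56 and 0.021 in control replicates 1 to 3. Tbx1cko replicate 1 was thus the lowest library and control replicate 3 the lowest control. Among 10129 other named genes with a mean of at least 100, the profiles nearest to it, by the root mean square difference over the 5 libraries, belonged to Icam1 (0.034), Bcor (0.039), Nrarp (0.081), Anks6 (0.085) and Zfp69 (0.088). The members themselves lay 0.14 (Egr2) to 0.45 (Nr4a3) from their average. Icam1, the leukocyte adhesion receptor of activated endothelium, had 7072 and 8926 normalised reads in Tbx1cko replicates 1 and 2, against 11939, 15027 and 10714 in control replicates 1 to 3. Bcor, which encodes a corepressor of BCL6, had 1018 and 1264 in Tbx1cko, against 1760.4, 2310 and 1477 in control replicates 1 to 3.

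**Figure D4:**
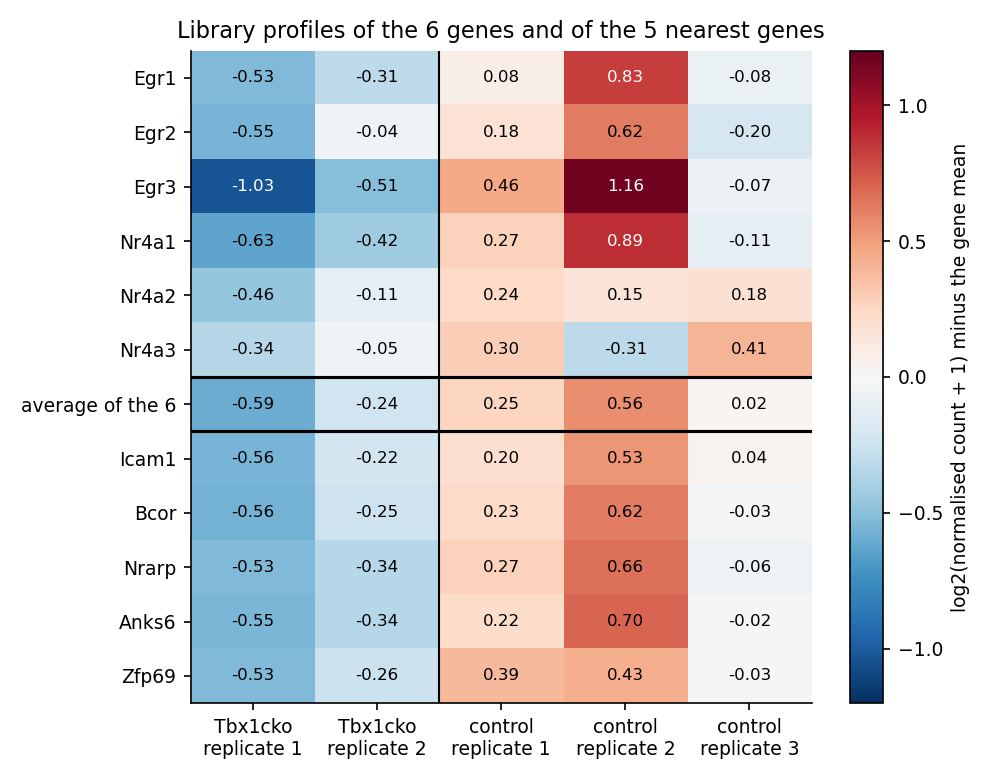
Log2(normalised count + 1) minus the mean of the gene for the 6 members, their average and the 5 genes with the nearest profile, in Tbx1cko (left) and control libraries (right), with the values printed in the cells. The average is -0.59 and -0.24 in Tbx1cko and 0.25, 0.56 and 0.021 in control replicates 1 to 3, and Nr4a3 is the only member that is negative in control replicate 2.

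Of the partners of the EGR proteins, Egr4 and Nab2 were on average lower in Tbx1cko and Nab1 was higher, none past the limma threshold. Egr4, the fourth member of the family, had 32.01 and 32.6 normalised reads in Tbx1cko replicates 1 and 2, against 78.0, 141 and 61.2 in control replicates 1 to 3. Its groups did not overlap, and its log2 difference was -1.41 (SE 0.431, limma adjusted p 0.762), with -1.07 without control replicate 2 and -0.87 after GC correction. Nab2, a corepressor that EGR proteins induce themselves, had 299 and 280.2 in Tbx1cko, against 445, 519.7 and 387 in the controls, also with no overlap, and differed by -0.63 on the log2 scale, by -0.52 without control replicate 2 and by -0.24 after GC correction. Nab1, its relative, had 2174 and 2150.2 in Tbx1cko, against 1843, 965 and 2098 in the controls. Its log2 difference of 0.48 rested largely on control replicate 2, with 0.14 without that library and 0.29 after GC correction. For the retinoid X receptors, which pair with Nr4a1 and Nr4a2, 0 of 3 had an unadjusted limma p under 0.05. Rxra, the most abundant, averaged 1817 ± 134 in Tbx1cko (SD, n = 2) and 2132 ± 641 in control libraries (SD, n = 3), a difference of -0.19 on the log2 scale, with 0.038 once control replicate 2 was left out and 0.17 after GC correction.

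Upstream, the lists of kinases and factors that carry signals to these promoters differed from each other in direction. Of 12 ERK cascade genes 4 had a log2 difference below 0, with a median of 0.11 (0.064 without control replicate 2), and the groups did not overlap for 1 lower and 4 higher genes, against 13.9% and 14.2% of all genes. Of the 6 SRF, TCF and MRTF factors 5 were below 0, with a median of -0.15 (-0.14 without control replicate 2). Their groups did not overlap for 1 lower and 1 higher gene. Srf itself averaged 1955 ± 265 in Tbx1cko and 2770 ± 574 in control libraries, a difference of -0.49 on the log2 scale, where leaving out control replicate 2 gave -0.33 and GC correction gave -0.00036. Of 13 genes of MEF2, class IIa HDAC and CREB factors 7 were below 0, with a median of -0.29 (10 below 0 and -0.15 without control replicate 2). In this list the groups did not overlap for 7 lower and 2 higher genes, against 13.9% and 14.2% of all genes. Without control replicate 2 these were 9 lower and 2 higher, where 17.8% of all genes were lower with no overlap. Hdac5, which encodes a MEF2 repressor, averaged 2450 ± 29.6 in Tbx1cko and 3967 ± 1491 in control libraries, a difference of -0.63 on the log2 scale, where leaving out control replicate 2 gave -0.34 and GC correction gave -0.20. Mef2d, a MEF2 factor, had a log2 difference of -0.36, with -0.21 without control replicate 2 and -0.037 after GC correction. Of 8 calcineurin and NFAT genes 4 were below 0, with a median of 0.025 (-0.078 without control replicate 2), and 3 lower and 2 higher genes had no overlap. Nfatc1, the factor of endocardial cushions, averaged 1366 ± 228 in Tbx1cko and 1924 ± 246 in control libraries, a difference of -0.50 on the log2 scale, where leaving out control replicate 2 gave -0.40 and GC correction gave -0.28. No gene of these 4 lists had an unadjusted limma p under 0.05 with all libraries.

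The ERK feedback inhibitors, which ERK induces and which then shut it off, had 10 of 11 members below 0, with a median log2 difference of -0.32 (-0.15 without control replicate 2, -0.049 after GC correction). The groups did not overlap for 5, all lower, against 13.9% of all genes. Dusp4, a nuclear phosphatase of ERK, averaged 151 ± 26.6 normalised reads in Tbx1cko and 262 ± 39.4 in control libraries, a log2 difference of -0.79 (SE 0.264, limma adjusted p 0.762) that was -0.50 after GC correction. Dusp5 averaged 2150.1 ± 30.01 in Tbx1cko and 2691 ± 189 in control libraries, and Spred2 averaged 1635 ± 39.4 in Tbx1cko and 2130.3 ± 203 in control libraries. After GC correction the log2 difference was -0.0085 for Dusp5, against -0.32 without correction, and -0.26 for Spred2, against -0.38. The 3 of them were lower at an unadjusted limma p under 0.05 without control replicate 2, as were 4.07% of all genes. With all libraries Dusp4 alone in the list was lower at that p, as were 1.37% of all genes.

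Of 27 other immediate early genes, 25 had a log2 difference below 0 and 23 had groups that did not overlap, all lower, against 13.9% of all genes. The median was -0.54 (-0.34 without control replicate 2, -0.26 after GC correction). For the 6 Egr and Nr4a genes it was -0.60 (-0.52 without control replicate 2, -0.49 after GC correction). Of the 27 other immediate early genes, 2 had an unadjusted limma p under 0.05 with all libraries and 13 without control replicate 2, all lower. The shares of all genes lower at that p were 1.37% and 4.07%. Fosl1, an AP-1 subunit, averaged 345 ± 24.3 in Tbx1cko and 625 ± 169 in control libraries. Fosl2 averaged 12023 ± 2497 in Tbx1cko and 17917 ± 2402 in control libraries, and Jund averaged 1475 ± 74.5 in Tbx1cko and 2647 ± 838 in control libraries. GC correction gave log2 differences of -0.40 for Fosl1, -0.39 for Fosl2 and -0.25 for Jund, against -0.83, -0.58 and -0.79 without it. Summed over the list, the normalised reads were 329508 and 372009 in the Tbx1cko libraries, against 490952, 707050.1 and 399520.4 in control replicates 1 to 3.

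Genes reported elsewhere as EGR targets did not share a direction. Of 13, 7 had a log2 difference below 0, with a median of -0.039 (9 below 0 and -0.16 without control replicate 2). The groups did not overlap for 3 lower and 2 higher, against 13.9% and 14.2% of all genes. Icam1 had a log2 difference of -0.65 (SE 0.224). With all libraries it was the single member with an unadjusted limma p under 0.05, where 1.37% of all genes were lower at that p. Without control replicate 2, 3 of the 13 were lower and 0 higher at that p, against 4.07% and 3.39% of all genes. In those libraries the groups did not overlap for 5 lower and 2 higher, where 17.8% of all genes were lower with no overlap. Pdgfa, a platelet-derived growth factor chain, had 917 and 635 normalised reads in Tbx1cko, against 1020.3, 1033 and 983 in control replicates 1 to 3, a log2 difference of -0.41 that was -0.081 after GC correction. Fgf2, a growth factor for endothelium, had 115 and 147 in Tbx1cko, against 98.3, 35.9 and 87.5 in the controls, so it was higher in both Tbx1cko libraries, with a difference of 0.93 on the log2 scale, where leaving out control replicate 2 gave 0.48 and GC correction gave 0.59.

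**Figure D5:**
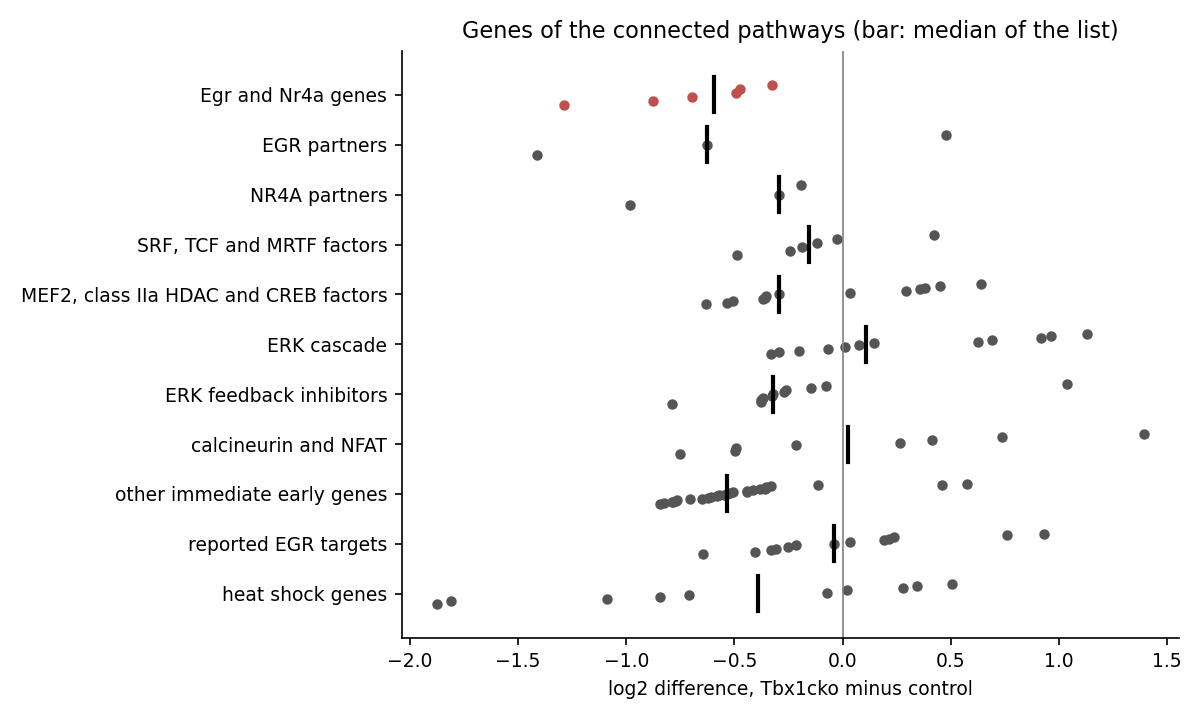
Log2 difference, Tbx1cko minus control, of every tested gene of the members and of 10 connected lists, with 1 point per gene and a bar at the median of the list. The points of the 6 Egr and Nr4a genes all lie below 0, as do 25 of the 27 other immediate early genes, while the ERK cascade and the EGR targets spread to both sides of 0.

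Heat shock genes, which tissue handling and warmth induce, were on average lower alongside the Egr and Nr4a genes in part with all libraries, and throughout the list without control replicate 2. Of 10, 6 had a log2 difference below 0 with all libraries, with a median of -0.39, and 4 had groups that did not overlap, all lower, against 13.9% of all genes. All 10 were below 0 without control replicate 2, with a median of -0.49, and 6 were lower at an unadjusted limma p under 0.05, against 4.07% of all genes. Hspa1b had 3451 and 3488 normalised reads in Tbx1cko, against 18029, 18867 and 6046 in control replicates 1 to 3, and Hspa1a had 1789 and 1974 in Tbx1cko, against 9449, 10666 and 2850.1 in the controls. The copies Hspa1a and Hspa1b are near-identical, so each count is uncertain. Hspb1 had 4900.5 and 4419 in Tbx1cko, against 11113, 14631 and 5978 in the controls, a log2 difference of -1.09 that was -0.63 after GC correction. Control replicate 3 was the lowest control for these 3 genes and also for Egr1, Egr2, Egr3 and Nr4a1. The labels give no batch or handling time, and the part of handling in the result was not tested.

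Markers of other cells that a CD31+ preparation can hold differed between the groups as well. The mural list had 9 of 10 markers below 0 and a median of -0.82, and its summed normalised reads ranged from 40088 to 41911 in Tbx1cko and from 48702 to 60776 in control libraries. Of the 10, 8 had groups that did not overlap, all lower, against 13.9% of all genes. The median was -0.62 without control replicate 2, where 9 of 10 were below 0, and DESeq2 called 5 lower, against 0.272% of all genes. The lymphatic endothelial list had 7 of 7 below 0, with and without control replicate 2, and DESeq2 without that library called 4 lower. Its sums were 8168 to 9568 in Tbx1cko and 11205 to 14484 in control libraries. The endothelial list had 8 of 10 below 0, with and without control replicate 2, with sums of 182258 to 196699 in Tbx1cko and 199303 to 284253 in control libraries.

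Lists of blood cells mostly pointed the other way, in part through control replicate 2. In the macrophage and monocyte list 2 of 11 were below 0, with sums of 96403 to 98304 in Tbx1cko and 63711 to 100186 in control libraries. The lowest sum was that of control replicate 2, and without it 5 of 11 were below 0 and the median was 0.16, against 0.42 with it. For Ly6C-low monocytes 2 of 8 were below 0, with sums of 69888 to 89822 in Tbx1cko and 21766 to 71216 in control libraries. Cd36, a scavenger receptor that capillary endothelium also expresses, made up most of that sum, with 60918 and 80722 normalised reads in Tbx1cko, against 55554, 11363 and 62523 in control replicates 1 to 3; it was chosen after its values were seen. Of the 8, 4 were below 0 without control replicate 2, and the median was 0.035, against 0.18 with it. All 6 neutrophil markers were above 0, with and without control replicate 2, with sums of 1328 to 1363 in Tbx1cko and 591 to 958 in control libraries. Platelet markers were above 0 for 5 of 6, and for 6 of 6 without that library, with sums of 3239 to 3702 in Tbx1cko and 1375 to 2385 in control libraries.

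Cardiomyocyte markers summed to 9063 to 9999 in Tbx1cko and 7256 to 13028 in control libraries, and the overlap came from control replicate 2 alone. With all libraries 3 of 8 were below 0 and the median was 0.079. Without control replicate 2, 0 of 8 were below 0, the median was 0.39, and 7 of 8 were higher with an unadjusted limma p under 0.05, against 3.39% of all genes, though none was called by limma or DESeq2. T and NK cell markers summed to 269 to 308 in Tbx1cko and 258 to 353 in control libraries, where the overlap again came from control replicate 2. Of the 7 tested, 4 were below 0, and 6 without that library. For fibroblasts, Schwann cells and B cells the sums overlapped with and without it. Fibroblast markers summed to 19509 to 39711 in Tbx1cko and 21312 to 37717 in control libraries, with 4 of 8 below 0, and 7 of 8 without control replicate 2. Schwann cell markers summed to 2739 to 3166 in Tbx1cko and 2358 to 3219 in control libraries, with 2 of the 6 tested below 0 in either case. B cell markers summed to 417 to 455 in Tbx1cko and 355 to 490.3 in control libraries, with 2 of 5 below 0 in either case. A marker stood at 0 reads in a single library, control replicate 2, for 1 macrophage or monocyte and 1 T or NK cell marker, and nowhere else in these 12 lists. The part of these cells in the result was not tested.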

How the data were processed

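The unit of the deposited table is a signal, reads of a gene that the authors scaled by one size factor in each library. Per the submitters' processing notes, the builds were GRCm38 and mm10 and the tools included DESeq2 1.20.0, STAR 2.5.2b, R 3.5.1 and DESeq. Which counter, annotation and strand setting made the counts is not given in the sources used here. Every value was a whole multiple of its library's smallest value above 0, within 0.01, so 100% gave whole reads. On those reads edgeR 4.0.16 called 0 genes and DESeq2 1.42.0 called 4. Every row named a gene.

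Genes with a mean of at least 10 were fitted with limma 3.58.1 (R 4.3.3) on log2(normalised count + 1), genotype as the only term, trended prior, 2-sided, with Benjamini-Hochberg adjustment over all 14339 genes and a threshold of 0.05. The pseudocount of 1 understates the change of low genes. Interval and SE are those of limma, and means carry the SD over libraries. The GC correction removed a loess (span 0.3) of each library's deviation on the GC content of GENCODE M21 transcripts, known for 13771 of the genes, and kept each library's median. Levels per kilobase use the union of exons. The tests were tested on simulated data.

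The members and all lists were chosen with earlier results of these data known. All 6 members are named, up to 3 genes with the smallest p from a connected list, and the 5 nearest profiles. Ly6g and Ncr1 were not analysed here. A gene that the naming rule picks is not reported here. Alternatives were a filter at 50 or none, a pseudocount of 0.5 or 5, TMM and quantile scaling, no trend, a robust prior, edgeR, DESeq2, a threshold of 0.1, GC correction, a replicate block and leaving out each library. Pairs of libraries, within and across the groups, differed by more than sampling noise, so none was counted as a duplicate. Their chi-square per degree of freedom was at least 11.9, the value of control replicate 3 with Tbx1cko replicate 1.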

Additional observations from a re-analysis of the deposited data

How the results depend on the processing

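All 6 genes kept a log2 difference below 0 in each of the 22 alternatives, which are not independent. The filters, no trend, the robust prior and the threshold of 0.1 cannot change an estimate. The replicate block gave the same estimates as leaving out control replicate 3. The ranges were -0.88 to -0.34 for Egr1, -0.75 to -0.24 for Egr2, -1.58 to -0.93 for Egr3, -1.11 to -0.53 for Nr4a1, -0.65 to -0.30 for Nr4a2 and -0.57 to -0.18 for Nr4a3. With limma or edgeR no alternative called a member. DESeq2 without control replicate 2 called 2 members, Egr3 at -0.98 and Nr4a1 at -0.63, and 65 genes in all (26 higher, 39 lower). Over the whole table DESeq2 with all libraries called 4 genes, edgeR without control replicate 2 called 1, and leaving out single libraries in limma gave 0 to 3, with 3 without control replicate 2. The number of members that lay lower with no overlap was 4 to 6 when single libraries were left out, beside 17.8% to 25.3% of all genes, and 6 without Tbx1cko replicate 2, beside 23.1%. Whether the replicate numbers of the labels pair the libraries could not be told. Same-numbered libraries deviated from their group means with r of -0.06 and -0.05 across genes. The deviations of 2 Tbx1cko libraries from their mean mirror each other, so these values cannot decide it. With a replicate block 3 genes were called (1 higher, 2 lower) and 0 members, and with the block and GC correction 0 and 0. Among genes that are no members, these turned above 0. With the block and GC correction Dusp5 was 0.093, Mef2d 0.019, Rxrb 0.14, Rxra 0.13, Srf 0.032 and Pdgfa 0.040. After GC correction Rxrb was 0.15 and Rxra 0.17. Without control replicate 2 Rxra was 0.038 with limma (-0.37 to 0.038 over single libraries left out), 0.020 with edgeR and 0.021 with DESeq2, and with GC correction added Rxra was 0.16 and Rxrb 0.14. The cause of these changes was not tested. Leaving out a Tbx1cko library leaves 1, assumed to vary like the controls. The SE of each member was smaller without control replicate 2, and depth limits Egr3 most, with the fewest reads.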
